A study of Homo sapiens with 6 samples.

Results

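Semaphorins, plexins and neuropilins are 3 linked gene families of cell guidance, and their transcripts were followed here in T47D cells with and without a miR-489 mimic. All 31 genes of the 3 families listed for this description were taken by name, 20 semaphorin ligands and 11 receptors, which the platform annotation maps to 51 of the array's 47322 probes (31 genes of 20046 named). No gene entered or left because of its own value. The families themselves were selected on earlier results of the mimic against scramble comparison of these 6 arrays, so every value of that comparison below is a description of these arrays, and the adjusted p-values only place each gene within a fit over all probes.

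T47D is an established line of luminal breast cancer cells. Cells received either the mimic, a synthetic duplex that raises the activity of the microRNA, or a scramble siRNA as control, and total RNA was extracted 72 h after transfection. Each group had 3 arrays, numbered 1 to 3, of a 1-colour Illumina BeadChip. The labels do not say whether the arrays of a group came from separate cultures, so all p-values measure the spread between these arrays, which may be technical.

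Semaphorins carry a sema domain, through which they bind plexins, and plexins act inside the cell as GTPase-activating proteins for Ras-family GTPases such as Rap1 and R-Ras. The class 3 ligands are secreted and mostly need a neuropilin as co-receptor, whereas classes 4 to 7 are bound to the membrane. The families steer growing axons and blood vessels, and in epithelial cells they bear on adhesion and migration. Neuropilins also bind members of the VEGF family.

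The mature miR-489-3p listed by RefSeq is shown because its seed is the part that pairs with target transcripts. It lies at chr7:93483947-93483968 on the minus strand of GRCh38.p14, has 22 bases, and its seed, bases 2 to 8, is in capitals. Neither the arm nor the sequence of the transfected mimic is stated in the labels, so the use of this strand in the cells is not known.
hsa-miR-489-3p: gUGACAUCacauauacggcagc
A target transcript that pairs with this seed holds GAUGUCA. Transcript sequences of the members were not analysed here, and the array does not measure the mimic itself.

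A probe was taken as detected on an array at a detection p below 0.01, and as measured when detected on at least 3 of the 6 arrays. By this measure 20 of the 31 member genes were measured, each through 1 probe: 13 ligands and 7 plexins. The remaining 31 member probes had deposited intensities between 98.0 and 152 on all arrays. Of these, 24 were detected on no array, 6 on 1 array and 1 on 2 arrays.

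No neuropilin was detected at a detection p below 0.01. Neither the 2 probes of NRP1 nor the 4 probes of NRP2, the co-receptors of secreted semaphorins, reached the limit on any array. PLXNA2, a receptor of class 6 semaphorins, PLXNC1, the receptor of SEMA7A, and the class 5 ligands SEMA5A and SEMA5B were likewise detected on 0 of 6 arrays. SEMA3A, the collapsin that repels axons, SEMA3B, SEMA3D, SEMA6D and the membrane-anchored SEMA7A each had 1 probe detected on 1 array. NRP1 came close to the limit at probe ILMN_1742547. Its detection p was 0.0104 on scramble array 1, 0.0273 on scramble array 3 and 0.0104 on mimic array 3. With a filter at a detection p below 0.05 on at least 3 arrays, 24 members were measured instead of 20, NRP1 among them. The detection limit sets only an upper bound on these 11 genes, so the values do not show that the transcripts are absent.

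**Figure D1:**
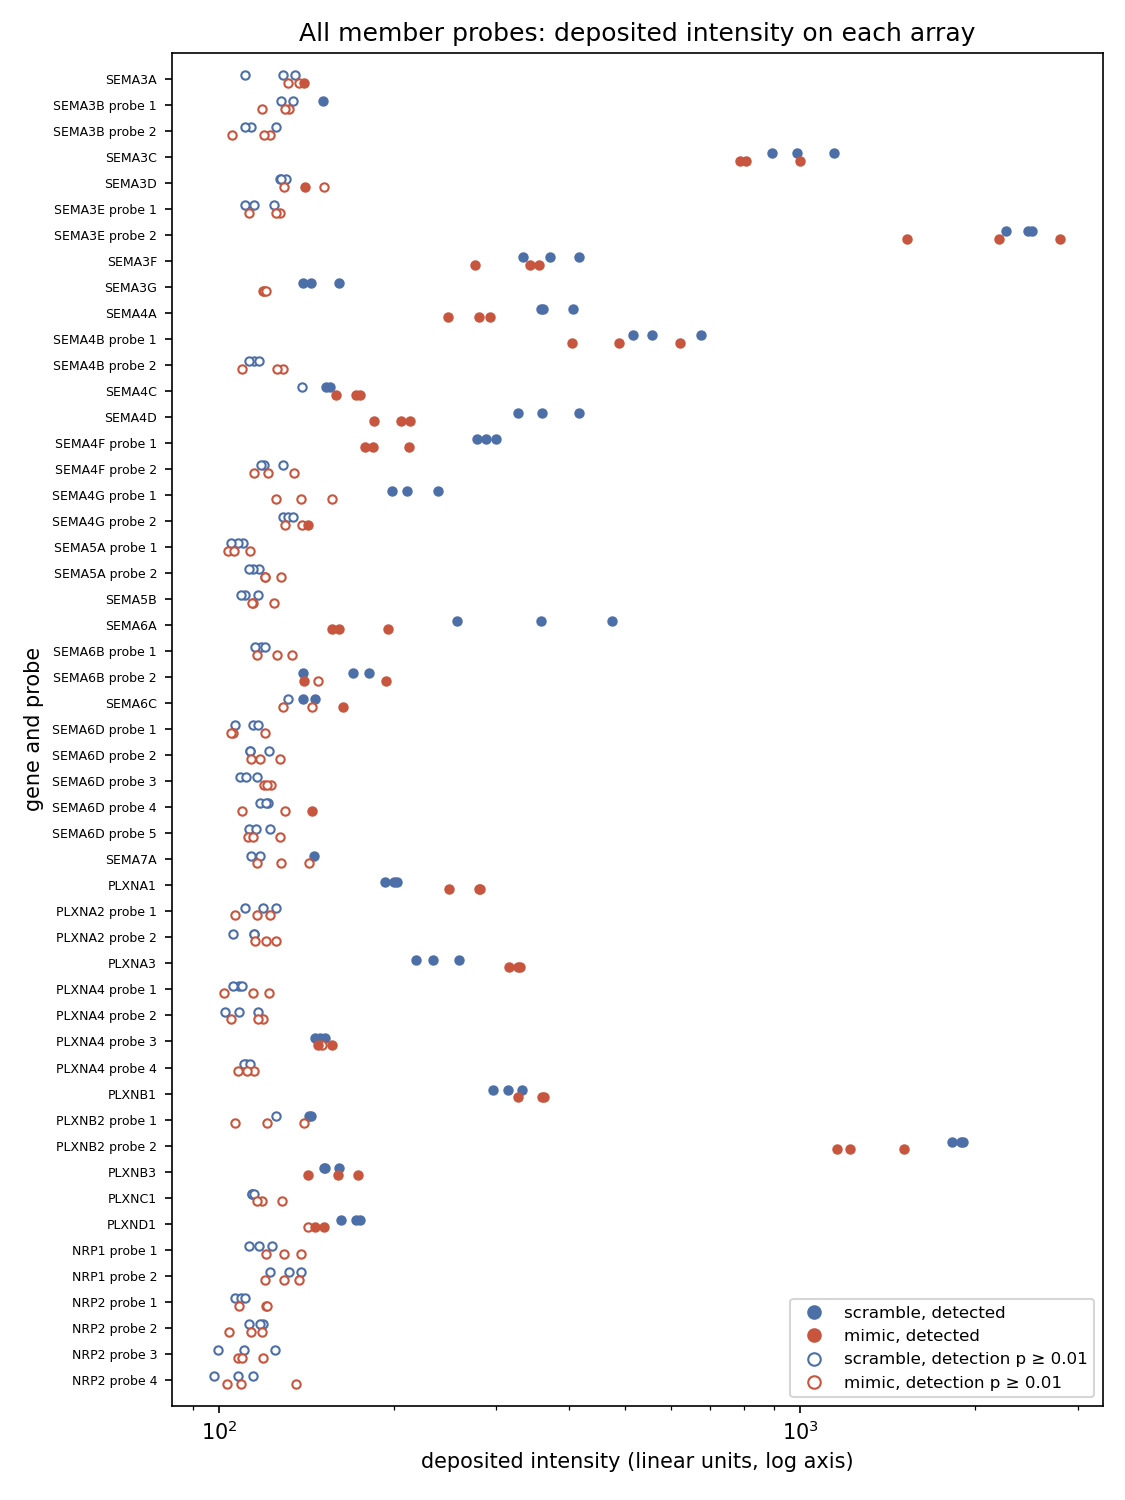
Deposited intensity (linear units on a log axis) of all 51 member probes, 1 row per probe, with scramble arrays in blue and mimic arrays in red, 3 points each. Filled points are detected and open points are not; the 31 probes that were not measured stay between 98.0 and 152, and levels of different probes are not compared.

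The arrays were alike in brightness, with mean intensities from 526 to 619 and 16452 to 17346 probes detected. Normalized values correlated at r = 0.982 to 0.993 between arrays of a group and at 0.945 to 0.958 between groups. All 10 luminal epithelial markers looked up were measured, and 0 of 6 endothelial markers, CDH5, EMCN, PECAM1, TEK, TIE1 and VWF, were detected on any array. Of 5 immune markers, CD14 and CD68 were measured and lower with the mimic (summed normalized intensity 794 to 879 in scramble, 472 to 494 with the mimic), and PTPRC, CD3E and MS4A1 were not. Of 5 neuronal markers SYT1 and TUBB3 were measured, with a sum of 313 to 374 in scramble and 136 to 177 with the mimic (TUBB3 lower, SYT1 not called), and RBFOX3, GAP43 and SNAP25 were not. The summed luminal markers were 102247 to 109550 in scramble and 78978 to 82592 with the mimic, but the 10 did not move together: ESR1 (log2 difference -1.16), FOXA1 (-1.05), XBP1 (-0.92 and -0.89 by its 2 probes) and KRT19 (-0.51) were lower, EPCAM (0.62, 0.50 and 0.48 by its 3 probes) and KRT8 (0.46) were higher, and CDH1, GATA3, KRT18 and PGR were not called. Of 6 fibroblast markers only COL1A1 was measured (158 to 249 against 163 to 202). Of 6 basal markers, 4 were in the annotation used, and only OXTR was measured (154 to 179 against 133 to 176). KRT17 and TP63 were not matched to a probe there. The part of these shifts in the results below was not tested. Total RNA of a whole culture cannot tell fewer expressing cells from less RNA per cell.

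Of 13 measured semaphorins, 6 were lower with the mimic at an adjusted p below 0.05 (limma, Benjamini-Hochberg over all measured probes), 0 were higher and 7 were not called. Over all 10503 genes measured, 17.3% were lower and 18.4% were higher by the same rule. The log2 difference, mimic minus scramble, was negative in 12 of the 13, with a median of -0.47 against 0.03 over all genes. One of the 12, SEMA6C at -0.04, was above 0 in the authors' processed values, where 11 of the 13 were negative. The same 6 ligands had mimic arrays wholly below the scramble arrays, which 24.7% of all genes did. SEMA3G and SEMA4G were measured only through the scramble arrays and so had to differ, and nothing is read from these counts about the family. The 6 that fell were SEMA6A, SEMA4G, SEMA4D, SEMA4F, SEMA3G and SEMA4A.

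Class 4 semaphorins, membrane proteins with an immunoglobulin-like domain, held 4 of the 6. All 6 class 4 genes, SEMA4A to SEMA4D, SEMA4F and SEMA4G, were measured, SEMA4G only through the scramble arrays. Over all genes 17.3% were lower, and nothing is read from the count about the class. SEMA4D, also called CD100, is the ligand of plexin-B1 and a regulator of immune cells and vessels (probe ILMN_1687533). Its log2 normalized intensity was 7.88, 8.43 and 8.12 on scramble arrays 1 to 3, and 6.51, 6.73 and 6.45 on mimic arrays 1 to 3. Every mimic array lay below every scramble array, by more than the spread within either group (SD 0.28 and 0.15). In deposited intensities this was 327, 415 and 359 against 213, 206 and 185. The log2 difference was -1.58 ± 0.17 (SE, n = 3 per group, limma adjusted p = 0.000585), a fall of 2.99-fold.

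SEMA4F is a transmembrane semaphorin of the nervous system (ILMN_1805007). Its values were 7.71, 7.66 and 7.56 in scramble and 6.50, 6.28 and 6.45 with the mimic, the tightest groups among the ligands that fell (SD 0.07 and 0.12). The difference of -1.23 ± 0.13 (limma adjusted p = 0.000489) is a fall of 2.35-fold. A second SEMA4F probe was detected on no array and gives no comparison.

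SEMA4G, which acts through plexin-B2 in the mouse brain, was detected on all 3 scramble arrays and on 0 of 3 mimic arrays (ILMN_1676248). Its detection p was 0.0104, 0.0117 and 0.0987 on mimic arrays 1 to 3, so arrays 1 and 2 missed the limit narrowly. Its log2 values were 6.84, 6.73 and 7.18 against 5.43, 5.30 and 4.81. The groups were apart, but the mimic level is only an upper bound. As that bound, the lowest detected value of each mimic array was taken where it exceeded the probe's own value. On this background-corrected scale SEMA4G fell at least 2.92-fold (fitted difference -1.74 ± 0.20, limma adjusted p = 0.000707). The bound holds for this scale only. The other SEMA4G probe was detected on 1 mimic array only.

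SEMA4A, a co-stimulator of T cells that binds B-type plexins and plexin-D1, had the smallest difference of the 4 class 4 genes that fell (ILMN_1702787). Values were 8.07, 8.15 and 8.36 in scramble and 7.23, 7.58 and 7.23 with the mimic. The groups did not overlap, and the difference was -0.84 ± 0.15 (limma adjusted p = 0.00466), or 1.79-fold.

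The 2 class 4 genes that were not called lay on both sides of 0. SEMA4B was at 8.74, 9.29 and 8.93 in scramble and 8.35, 9.02 and 8.26 with the mimic, and SEMA4C, a plexin-B2 ligand, at 5.35, 5.87 and 5.88 against 5.49, 6.21 and 6.22. Both groups overlapped in each gene. The differences were -0.44 ± 0.23 (limma adjusted p = 0.176) for SEMA4B and 0.28 ± 0.24 (0.406) for SEMA4C, which missed the detection limit on 1 scramble array.

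Among 4 class 6 semaphorins, transmembrane ligands that also signal backwards into the cell that carries them, 3 were measured and SEMA6A fell. It binds plexin-A2 and plexin-A4 in the mouse. SEMA6A (ILMN_1713529) read 7.35, 8.68 and 8.11 in scramble and 5.54, 6.58 and 5.88 with the mimic. Both groups were broad (SD 0.67 and 0.53), with array 2 highest in each, and still the highest mimic array lay below the lowest scramble array. In deposited intensities the scramble arrays read 256, 475 and 357 and the mimic arrays 160, 195 and 157. The difference of -2.05 ± 0.36 (limma adjusted p = 0.00434), a 4.14-fold fall, was the largest fitted among the members in either direction. Mimic arrays 1 and 3 were close to background, where the lowest detected values were 5.45 and 5.33. The size of the fold is therefore uncertain, and it was 1.76 in the authors' processed values. SEMA6B overlapped between groups, at 5.37, 6.46 and 6.23 against 5.18, 6.56 and 5.39 (difference -0.31 ± 0.40, limma adjusted p = 0.581), and SEMA6C differed by -0.04 ± 0.29 (0.932). SEMA6C was detected on 2 scramble arrays and 1 mimic array, close to background throughout.

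**Figure D2:**
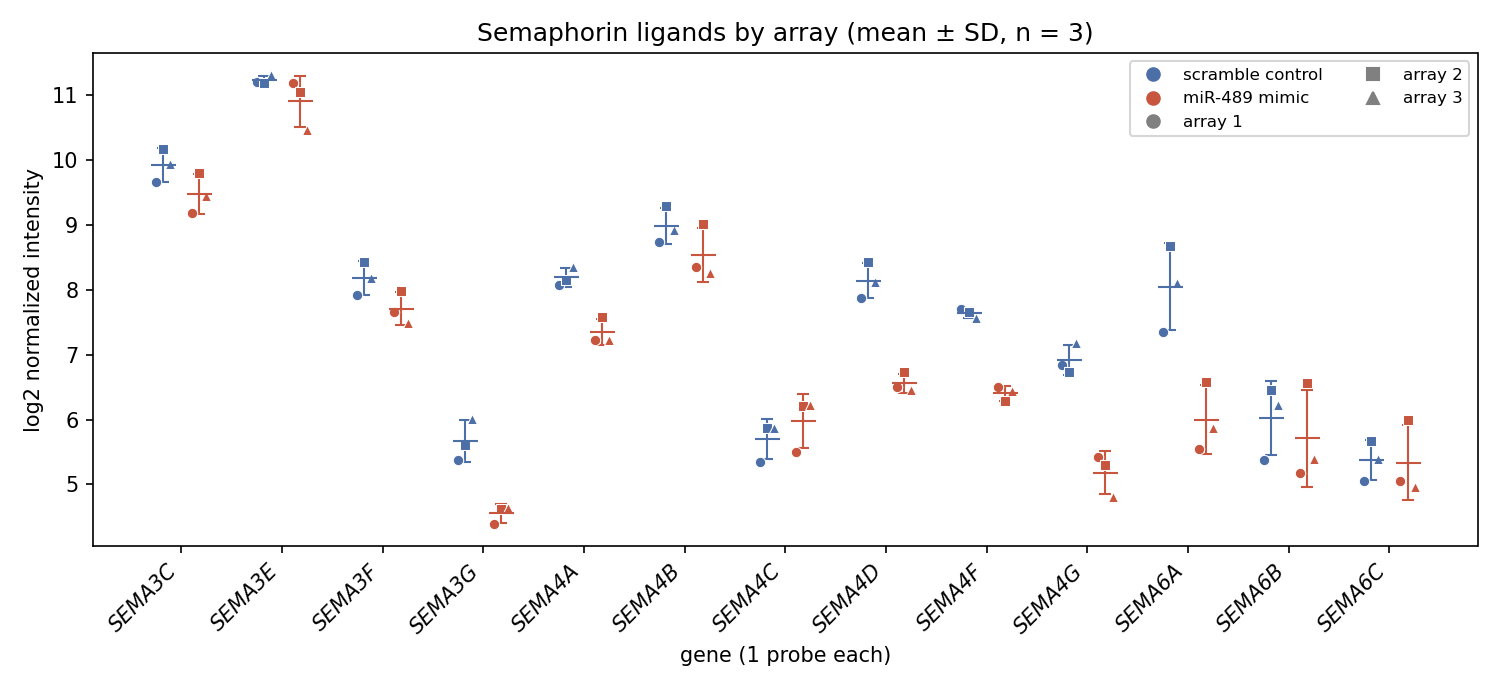
Log2 normalized intensity of the 13 measured semaphorins on each array, with the mean and SD of 3 scramble arrays (blue) and 3 mimic arrays (red); the marker shape is the array number. SEMA3G, SEMA4A, SEMA4D, SEMA4F, SEMA4G and SEMA6A have all mimic arrays below all scramble arrays, and the other 7 overlap.

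Of 4 measured class 3 semaphorins, which are secreted, SEMA3G, an endothelial ligand of neuropilin-2, fell, and 3 were not called. SEMA3G (ILMN_1676067) was at 5.37, 5.61 and 6.02 in scramble, all detected, and at 4.39, 4.63 and 4.64 with the mimic, none detected. On the background-corrected scale it fell at least 1.22-fold (fitted difference -1.11 ± 0.18, limma adjusted p = 0.00311). The scramble level was itself near the detection limit: its deposited intensities were 139 to 161 in scramble and 119 to 120 with the mimic.

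SEMA3C, SEMA3E and SEMA3F all had negative differences below the threshold. SEMA3C, which signals through neuropilins and plexin-D1, read 9.66, 10.17 and 9.93 against 9.18, 9.81 and 9.45. SEMA3E, which binds plexin-D1 without a neuropilin, read 11.20, 11.19 and 11.30 against 11.19, 11.05 and 10.46. SEMA3F, the ligand of neuropilin-2, read 7.92, 8.43 and 8.18 against 7.66, 7.98 and 7.48. In each gene the groups overlapped, and in SEMA3E mimic array 3 alone stood well below the scramble arrays. The differences were -0.44 ± 0.20 for SEMA3C (limma adjusted p = 0.122), -0.33 ± 0.19 for SEMA3E (0.228) and -0.47 ± 0.19 for SEMA3F (0.0853). Without mimic array 2, SEMA3C (adjusted p = 0.0451), SEMA3F (0.0417) and SEMA4B (0.0297) passed the threshold.

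Without background correction, all else kept, the 6 ligands that fell were called with smaller log2 differences, at -0.98 for SEMA4D, -0.70 for SEMA4F, -0.70 for SEMA4G, -0.58 for SEMA4A, -1.16 for SEMA6A and -0.37 for SEMA3G. In the authors' processed values, which differ in more than background, they were called too, and the log2 differences were -0.70 for SEMA4D, -0.48 for SEMA4F, -0.43 for SEMA4G, -0.43 for SEMA4A, -0.81 for SEMA6A and -0.20 for SEMA3G. For SEMA4G (1.35-fold) and SEMA3G (1.15-fold) these lie below the bounds given above, and SEMA4G does so without background correction too. Those bounds therefore hold only on the background-corrected scale.

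Plexins moved in both directions. Of 7 measured, PLXNA1 and PLXNA3 rose, PLXNB2 and PLXND1 fell, and PLXNA4, PLXNB1 and PLXNB3 were not called. Over ligands and plexins together 10 of 20 genes were called (50% against 35.7% of all genes), and the same number had groups that did not overlap (against 51.4% of all genes). Both counts include SEMA3G and SEMA4G, which were measured only through the scramble arrays and so had to differ. Nothing is read from these counts about the families.

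PLXNA1 and PLXNA3 encode signalling partners of neuropilins for the secreted semaphorins. PLXNA1 (ILMN_1791569) read 6.70, 6.78 and 6.63 in scramble and 7.24, 7.21 and 7.52 with the mimic. Each mimic array exceeded each scramble array, at deposited intensities of 248 to 282 against 193 to 202. The difference was 0.62 ± 0.14 (limma adjusted p = 0.0107), a rise of 1.53-fold. PLXNA3 (ILMN_1719972) read 7.12, 7.42 and 6.96 against 7.57, 7.83 and 7.77, also without overlap. Its difference was 0.56 ± 0.16 (limma adjusted p = 0.0286), and the call was lost without scramble array 1 (0.0662) or 3 (0.0945) and without mimic array 2 (0.0669) or 3 (0.0897). PLXNA4, a receptor of class 6 semaphorins, was measured by 1 of its 4 probes, at 5.62, 5.85 and 5.71 against 5.26, 5.61 and 5.87, and differed by -0.15 ± 0.18 (limma adjusted p = 0.550).

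PLXNB2, a receptor of SEMA4C and SEMA4G with roles in epithelial and neural development, fell. Its bright probe (ILMN_1763447) read 10.76, 10.94 and 10.92 in scramble and 10.21, 10.14 and 10.01 with the mimic. The groups were narrow (SD 0.10 each) and apart, in deposited intensities 1820, 1890 and 1902 against 1509, 1218 and 1154. The difference was -0.75 ± 0.13 (limma adjusted p = 0.00346), or 1.68-fold, and was -0.68 in the authors' processed values. The other PLXNB2 probe was detected on 2 scramble arrays and no mimic array, and was not tested.

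PLXND1, the receptor of SEMA3E in blood vessels, was close to the detection limit (ILMN_1675222). It read 6.04, 6.35 and 6.26 against 4.99, 5.55 and 5.74, with mimic array 1 not detected. The groups did not overlap, and the difference was -0.79 ± 0.21 (limma adjusted p = 0.0205). The call was lost without scramble array 2 (0.0652) or 3 (0.0624) and in the authors' processed values (log2 -0.17, 0.0719).

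PLXNB1, the receptor of SEMA4D, read 7.91, 7.72 and 7.84 in scramble and 7.78, 7.81 and 8.04 with the mimic. The arrays of the groups were interleaved, and the difference was 0.06 ± 0.13 (limma adjusted p = 0.774). PLXNB3, which binds SEMA5A, differed by -0.13 ± 0.16 (limma adjusted p = 0.563). Side by side, SEMA4D was 2.99-fold lower on the background-corrected scale (1.63-fold in the authors' processed values), while its receptor gene PLXNB1 was not called. SEMA3E was not called while PLXND1 was lower, and both SEMA4G and its mouse partner gene PLXNB2 were lower.

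**Figure D3:**
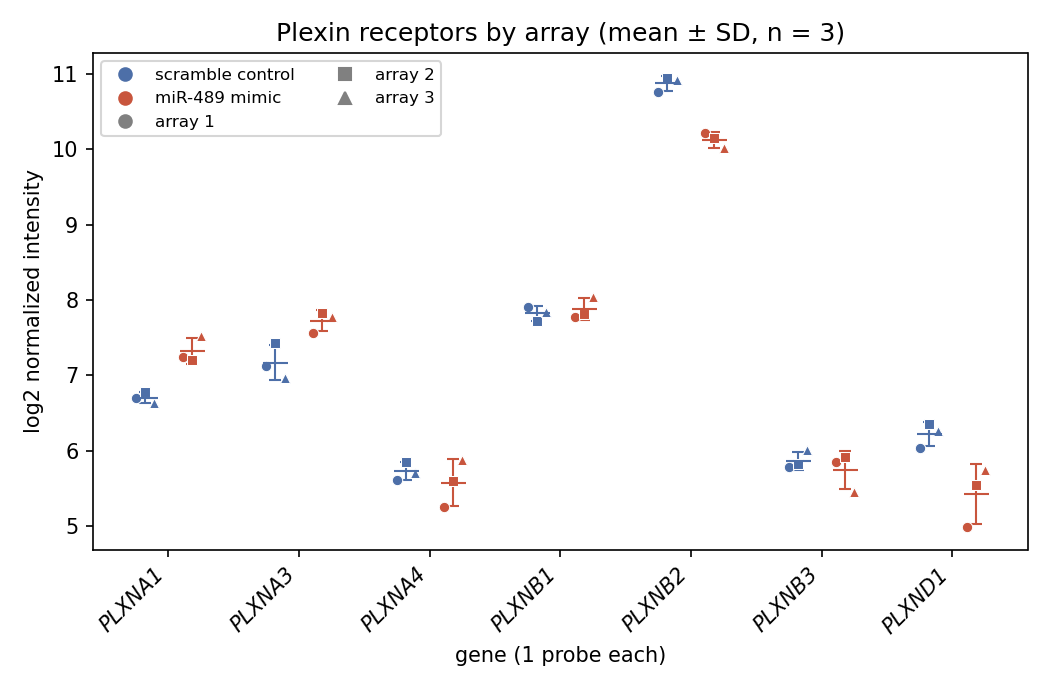
Log2 normalized intensity of the 7 measured plexins on each array, with the mean and SD of 3 scramble arrays (blue) and 3 mimic arrays (red). PLXNA1 and PLXNA3 lie higher with the mimic, PLXNB2 and PLXND1 lower, and the other 3 overlap.

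**Figure D4:**
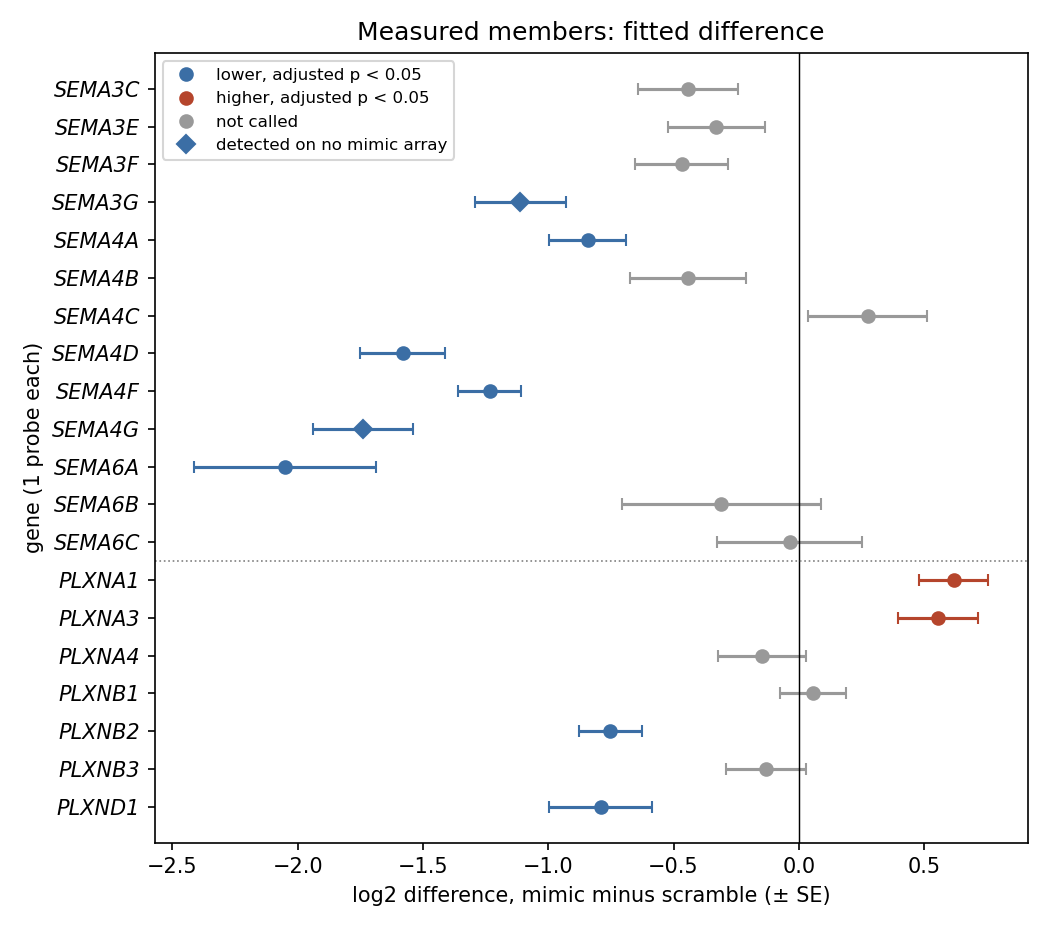
Fitted log2 difference, mimic minus scramble, with its SE for the 20 measured members, ligands above the dotted line and plexins below it. Blue marks lower and red higher at an adjusted p below 0.05, diamonds mark genes detected on no mimic array, and values run from -2.05 for SEMA6A to 0.62 for PLXNA1.

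The bases before the start of 6 members are shown because they set the 4 class 4 ligands that fell beside the 2 plexins that rose. Each is the 250 bases before the most upstream start that RefSeq lists (GRCh38.p14), read 5′ to 3′ on the gene's strand, with the GC box GGGCGG or its reverse complement in capitals.
SEMA4A, chr1:156149694-156149943, plus strand: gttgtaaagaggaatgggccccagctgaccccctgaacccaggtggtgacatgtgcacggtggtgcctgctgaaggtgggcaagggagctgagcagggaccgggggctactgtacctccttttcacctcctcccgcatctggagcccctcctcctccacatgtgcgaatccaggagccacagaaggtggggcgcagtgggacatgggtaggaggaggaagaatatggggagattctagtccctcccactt
SEMA4D, chr9:89495657-89495906, minus strand: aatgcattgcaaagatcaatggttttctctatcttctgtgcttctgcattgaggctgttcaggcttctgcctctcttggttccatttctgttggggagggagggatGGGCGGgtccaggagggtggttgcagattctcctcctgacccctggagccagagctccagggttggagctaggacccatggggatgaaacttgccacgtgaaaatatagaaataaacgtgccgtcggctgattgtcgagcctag
SEMA4F, chr2:74653997-74654246, plus strand: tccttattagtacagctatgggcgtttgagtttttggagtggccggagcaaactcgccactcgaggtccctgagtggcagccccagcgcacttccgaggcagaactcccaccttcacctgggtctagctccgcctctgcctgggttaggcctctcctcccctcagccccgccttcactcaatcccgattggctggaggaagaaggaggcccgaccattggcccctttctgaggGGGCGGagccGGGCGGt
SEMA4G, chr10:100969254-100969503, plus strand: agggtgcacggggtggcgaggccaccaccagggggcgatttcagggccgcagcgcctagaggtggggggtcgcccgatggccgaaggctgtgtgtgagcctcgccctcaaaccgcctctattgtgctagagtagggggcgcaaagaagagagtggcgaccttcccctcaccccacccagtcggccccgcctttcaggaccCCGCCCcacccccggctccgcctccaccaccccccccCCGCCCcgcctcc
PLXNA1, chr3:126982865-126983114, plus strand: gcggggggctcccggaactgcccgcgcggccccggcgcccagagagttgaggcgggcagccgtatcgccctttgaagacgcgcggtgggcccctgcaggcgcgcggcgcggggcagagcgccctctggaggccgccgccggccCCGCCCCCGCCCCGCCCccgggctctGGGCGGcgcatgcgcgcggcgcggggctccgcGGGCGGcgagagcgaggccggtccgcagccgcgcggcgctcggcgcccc
PLXNA3, chrX:154458031-154458280, plus strand: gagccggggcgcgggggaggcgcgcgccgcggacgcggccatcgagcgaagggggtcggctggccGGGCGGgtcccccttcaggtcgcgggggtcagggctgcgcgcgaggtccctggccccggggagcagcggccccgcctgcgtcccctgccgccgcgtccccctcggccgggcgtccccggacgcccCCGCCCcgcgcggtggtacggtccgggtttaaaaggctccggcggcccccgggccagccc
The GC box, which Sp-family factors bind, was counted on both strands with overlapping matches included. It occurred 0 times before SEMA4A, 1 time before SEMA4D, 2 times each before SEMA4F and SEMA4G, 5 times before PLXNA1 and 2 times before PLXNA3. CpG dinucleotides numbered 5, 6, 13 and 19 before SEMA4A, SEMA4D, SEMA4F and SEMA4G, and 46 and 41 before PLXNA1 and PLXNA3, against a median of 10 over all 27305 promoters. Of the other members that fell, PLXND1 had 41, PLXNB2 12 and SEMA3G 4, and SEMA6A had no promoter listed. The count did not go with direction in all members. Both genes that rose are A-type plexins, so direction cannot be told apart from gene family here. A link between CpG number and direction was not tested.

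Of the 31 members, 27 had a promoter in the RefSeq table, and 19 of them held a GC box, which 42.2% of all promoters did. Median GC content was 66.4% in the 27 and 57.6% over all promoters, and a GC-rich motif is more frequent in GC-rich sequence. The E-box CACGTG was in 3 of the 27 (SEMA3E, SEMA4D and SEMA6D) and in 6.46% of all. The cAMP response element TGACGTCA was in 2 (SEMA3B and SEMA4C; 1.75% of all), the forkhead motif TGTTTAC in 1 (SEMA4B; 3.01%), and the AP-1 motif TGANTCA in 0 (6.57%). A match describes letters in this window and says nothing of a factor bound there.

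Other genes of semaphorin signalling were called at about the background rate, both directions together. A list of 79 co-receptors, effectors, processing enzymes and competing ligands had 43 measured genes, of which 3 rose, 11 fell and 29 were not called (32.6% called against 35.7% of all genes). Over all genes 18.4% rose and 17.3% fell, so the split by direction differed from that of all genes. The split was not tested.

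Enzymes that process the ligands held 2 falls among 5 measured, where 17.3% of all genes fell. Nothing is read from so few genes. PCSK7, a proprotein convertase, read 9.51, 9.07 and 8.97 in scramble and 7.73, 7.58 and 7.60 with the mimic. FURIN, the convertase that cleaves class 3 semaphorins, read 6.09, 6.88 and 6.65 against 5.63, 5.05 and 4.86. It was detected on all 3 scramble arrays and on 1 of 3 mimic arrays, so it was measured mainly through scramble. Neither gene overlapped between groups, and the differences were -1.55 ± 0.17 (limma adjusted p = 0.000575) and -1.36 ± 0.26 (0.00564). In the authors' processed values FURIN differed by -0.31.

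Among co-receptors and other receptors, 2 of 6 measured genes fell, again against 17.3% of all genes. MST1R, the RON kinase that associates with B-type plexins, read 7.45, 6.88 and 6.88 against 5.81, 5.38 and 5.94. The groups were apart, and the difference was -1.37 ± 0.21 (limma adjusted p = 0.00246; -0.40 in the authors' processed values). ITGB1, the integrin beta subunit that serves SEMA7A, differed by -0.44 ± 0.12 (limma adjusted p = 0.0267). This call was lost without scramble array 1 (0.0607) or 3 (0.0832), without mimic array 1 (0.0792) or 2 (0.0600) and with median scaling (0.0622), and a second ITGB1 probe was not called (0.110). MET, a partner of plexin-B1, was not called (-0.38, adjusted p = 0.0701).

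Of 27 measured effectors, 3 rose and 7 fell, 37% in all against 35.7% of all genes. RRAS2, a relative of the plexin substrate R-Ras, had the largest difference, at 6.98, 6.73 and 7.09 in scramble and 9.36, 9.05 and 9.28 with the mimic. Its mimic arrays were far above its scramble arrays, with a difference of 2.29 ± 0.15 (limma adjusted p = 0.000118), and a second RRAS2 probe gave 1.88 ± 0.19. RND3, a Rnd GTPase that opposes RhoA, read 9.52, 9.31 and 9.06 against 7.71, 6.68 and 7.64, a difference of -1.95 ± 0.28 (limma adjusted p = 0.00167). In the authors' processed values RRAS2 was at 1.30 and RND3 at -1.17. RAC2, a Rac GTPase best known in blood cells, differed by -1.24 ± 0.15 (limma adjusted p = 0.000838). RRAS, the gene of R-Ras itself, was lower, unlike RRAS2. It read 10.09, 10.22 and 10.02 against 9.19, 9.21 and 9.36, a difference of -0.86 ± 0.13 (limma adjusted p = 0.00194).

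LIMK2, a kinase of cofilin, fell by 1.30 on the log2 scale at its brightest probe (SE 0.18, limma adjusted p = 0.00160), but its other 2 measured probes differed by 0.17 ± 0.21 and -0.09 ± 0.15, and the mean of the 3 was not called (-0.41, adjusted p = 0.0740). The single measured collapsin response mediator gene, DPYSL2, and all 4 measured competing ligands of neuropilins, VEGFA, VEGFB, PDGFB and LGALS1, were not called, with adjusted p-values from 0.0798 (PDGFB) to 0.396 (VEGFA).

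**Figure D5:**
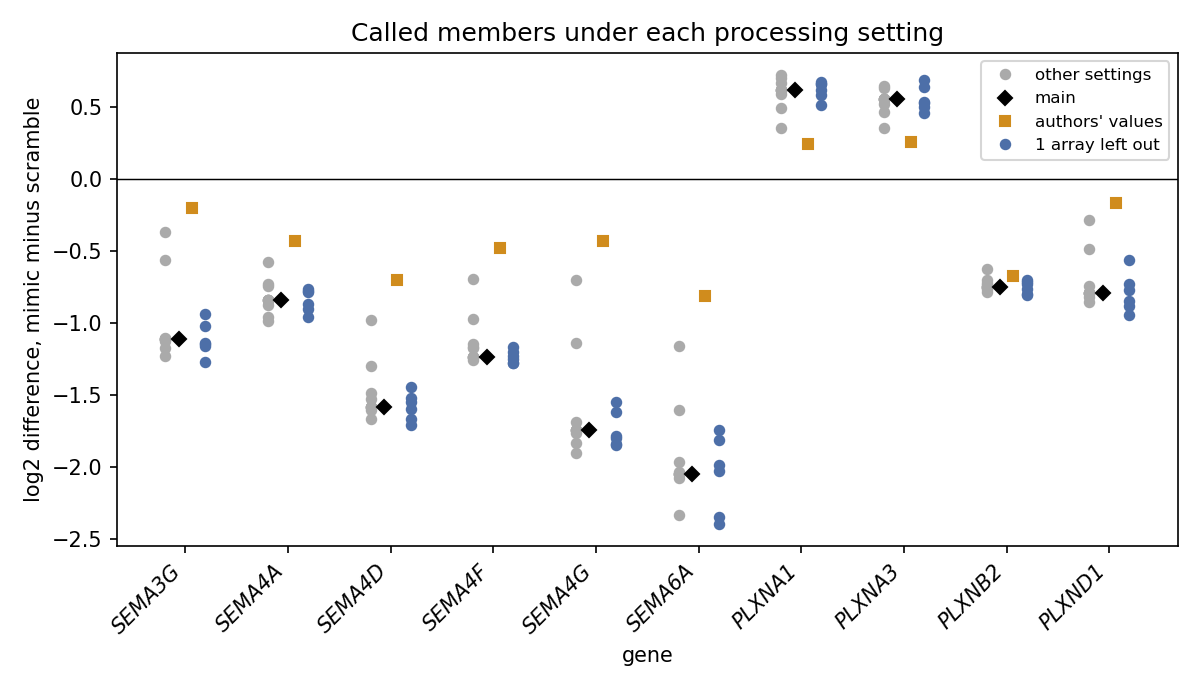
Log2 difference, mimic minus scramble, of the 10 called members under the reported setting (black), with 1 array left out (blue), in the authors' processed values (orange) and under the other settings (grey). All points of a gene lie on 1 side of 0; the authors' values are closest to 0 for 9 of the 10 genes, PLXNB2 being the exception.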

How the data were processed

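Array data from 3 scramble and 3 mimic samples were used. The deposited table gives, per the file headers, the linear intensity of 47322 probes before normalization, each with its detection p-value. The software behind these values was not given in the sources used here. A second deposited table holds the authors' processed intensity, for which the submitters' processing notes name lumi 3.2.2 without settings. All columns there have a median of 201, so the scale is linear, and any transform or centring stays unknown. They served as an alternative.

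Background was removed from the deposited intensities by normexp from the detection p-values (nec, offset 16, limma 3.58.1, R 4.3.3). Quantile normalization and log2 followed, and 17104 probes detected at a p below 0.01 on at least 3 of 6 arrays were kept. The model held the group alone (lmFit and eBayes, two-sided, with Benjamini-Hochberg adjustment over kept probes), and a call is an adjusted p below 0.05. Errors of differences are its standard errors. Symbols came from the platform annotation, updated through Entrez identifiers (30074 probes matched in GRCh38.p14 names); 30113 probes had 1 symbol, 8 several and 17201 none listed. The brightest kept probe stood for a gene (10503 genes). A probe detected on no array of a group has only a bound there, given as "at least" from the means of log2 values on this scale. The number of arrays limits the precision.

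Members and gene lists were chosen with earlier results of these data known. All measured members are named, and from each pathway list up to 4 called genes with the largest difference. MET, RRAS, DPYSL2 and the neuropilin ligands were added after their values were seen. RHOD, PAK1 and GIPC1 were not analysed here. No arrays of a group shared an identical intensity value. Arrays with the same replicate number were not treated as pairs, since the labels name nothing they share. Deviations from group means correlated at 0.36, 0.45 and -0.11 for numbers 1, 2 and 3, and at -0.49 to 0.35 between different numbers. These correlations do not settle whether the numbers pair the arrays, so the replicate number was also used as a block. The fit was tested on simulated data. Alternatives were the authors' table, no background correction, an offset of 50, cyclic loess or median scaling, no filter, a filter at a detection p of 0.05, the replicate block, array weights, trend and robust, averaging the probes of a gene, and dropping each array in turn; dropping array 2 of both groups was added after seeing the data.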

Additional observations from a re-analysis of the deposited data

How the results depend on the processing

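Of the 10 called members, 8 kept their direction and call under all 18 alternatives; the exceptions, PLXNA3 and PLXND1, kept their direction. The authors' fold was over 1.5 times smaller for 6 of the 10 (PLXND1, SEMA3G, SEMA4D, SEMA4F, SEMA4G and SEMA6A). It was so for 4 of the 8 pathway genes named for their large difference (RND3, RRAS2, MST1R and FURIN). The count of members that rose was 2, against 1 without a filter on dim probes and 1 to 2 with 1 array left out; 8 fell, against 7 to 11 with 1 array left out. The count of pathway genes that rose was 3, against 1 without a filter, 1 without array 2 of both groups (chosen after seeing the data) and 1 to 4 with 1 array left out. The cause was not tested. With the replicate number as a block, 11 members fell and 2 rose, adding SEMA3C, SEMA3F and SEMA4B, which array weights also called; the numbers are not known to pair the arrays. Members that were not called changed sign in a few settings: with 1 array left out, PLXNA4 ranged from -0.29 to 0.013 (above 0 without mimic array 1), PLXNB1 from -0.026 (without mimic array 3) to 0.11, PLXNB3 from -0.22 to 0.014 (above 0 without mimic array 3) and SEMA6C from -0.36 to 0.15 (above 0 without scramble array 2 or mimic array 1 or 3), and SEMA6C was at 2.6e-04 in the authors' values. Over all genes, 1933 were higher and 1819 lower, against 2383 and 1431 with median scaling. Signal close to background limits SEMA3G, SEMA4C, SEMA4G, SEMA6B, SEMA6C, PLXNA4, PLXNB3 and PLXND1, and with the mimic also SEMA6A.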

Other observations

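Array 2 was the highest array of its group in both groups for 8 of the 20 measured member probes (40%), and for 17.4% of all kept probes. In SEMA6A array 2 read 8.68 in scramble, against 7.35 and 8.11 on arrays 1 and 3, and 6.58 with the mimic, against 5.54 and 5.88. SEMA6B, SEMA6C, SEMA3C, SEMA3F and SEMA4B, which were not called, and SEMA4D and PLXNA3, which were, also had array 2 highest in both groups. When array 2 was dropped from both groups, which was decided after seeing the data, the called members were the same except that PLXND1 was not called (adjusted p = 0.0715).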
